A study of Mus musculus with 6 samples.

Results

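The genes described here are 236 mouse Zfp genes, which encode zinc finger proteins, measured in the aorta of ApoE KO and wild type (WT) mice on a high-fat diet. They were chosen from 296 genes on the array whose symbol is Zfp followed by digits, as those whose brightest probe had a mean intensity of at least 0.1 in the reference channel of the 3 arrays headed C57BL6. The other 60 were dimmer. Intensities are on the deposited table's own scale, which was written in steps of 0.01. The members' median intensity was 0.442, with a range of 0.1 to 16.0, against a median of 0.143 over all 35318 features, a feature being 1 gene symbol or 1 unnamed probe. The rule read the reference channel only, so that a gene expressed solely in ApoE KO aortas could not enter, and the genes used for comparison passed the same floor.

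A zinc finger is a short protein loop folded around a zinc ion, and most Zfp proteins string many such fingers of the C2H2 kind into a chain that reads DNA. A large group of them also carries a KRAB domain, which recruits the corepressor Trim28 and through it the histone methyltransferase Setdb1, HP1 proteins and the NuRD complex to silence chromatin, above all at retroelements. Such KRAB genes multiplied by tandem duplication and lie in clusters, many of them on the chromosome that also carries Apoe. A smaller number of Zfp proteins act on RNA, on ribosomes or in cell fate decisions, and in the vessel wall only a few members have well studied roles. Because the family is so large and its coding sequences resemble one another, signal from a close paralog on the same probe cannot be told apart here.

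The comparison rests on 6 aortas, 3 labelled ApoE KO at an age of 32 weeks and 3 labelled C57BL6 (called WT here) at 24 weeks. All 6 mice received the high-fat diet, and the protocol states 16 weeks of it from an age of 8 weeks, which is at odds with the age given for the knockout. Apolipoprotein E, which the knockout lacks, is the ligand through which remnant lipoproteins leave the plasma. The knockout aortas had atherosclerotic lesions and the WT aortas had none, per the labels. The background label of both groups reads C57BL6 db/+, and source names speak of db/+ mice at 9 weeks. How the Apoe allele was made, and whether aortas were pooled, is not stated. Headings of 3 array columns that name no group mention a vehicle and 24 weeks of diet, and effects of the genotype, the age, the time on the diet and a vehicle cannot be told apart. Each value is the log2 ratio of an aorta's own RNA, labelled with Cy5, to a common Cy3 reference made from aortas of C57BL6 mice on the diet at 24 weeks. A fold change below is the mean ratio of the 3 ApoE KO arrays minus that of the 3 WT arrays, tested with limma (two-sided) over all features, and a gene is said to be called, or to have risen or fallen, at a Benjamini-Hochberg adjusted p under 0.05. The replicates are labelled biological, and their number limits the precision.

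Between 39480 and 39551 probes were measured per array. Apoe fell by 1.21 ± 0.13 on the log2 scale (SE, n = 3 per group; limma, adjusted p = 0.00652), with its 3 ApoE KO ratios at -1.31, -1.21 and -1.31 and its WT ratios at 0.00, -0.32 and 0.12. Markers of cell types differed between the groups. Of 10 macrophage markers 9 rose, with array medians of 1.76 to 1.86 in ApoE KO and -0.12 to 0.05 in WT. All 6 smooth muscle markers fell, by a median of 0.70 on the log2 scale. Of 5 endothelial markers 1 rose, of 4 fibroblast markers 2 rose, of 5 cardiac markers 1 rose, and of 5 fat markers 1 fell. In bulk tissue fewer cells of a type and less RNA per cell cannot be told apart. The part of these shifts in the Zfp results was not tested. The median log2 ratio of all features of intensity 0.5 or more was -0.055, -0.049 and -0.056 on the ApoE KO arrays and 0, 0 and -0.013 on the WT arrays, so fold changes are to be read against a small shift of the arrays.

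Zfp transcripts were mostly a little lower in ApoE KO aortas. Of the 236 members 50 fell (21.2%) and 4 rose (1.69%), where 7.97% of all features were called lower and 6.69% higher. Among the 17315 other named genes above the same floor, 12.5% were called lower and 11.5% higher. The changes were small: the called falls had a median of -0.26 on the log2 scale, 37 of the 50 were under 1.25-fold, and 3 reached 1.5-fold. The median fold change of all members was -0.079, against -0.039 for the other named genes. Below 0 lay 170 members (72.0%), beside 59.9% of the other named genes, while 63 members lay above it and 3 at 0. Groups did not overlap in 42.8% of the members, against 29.1% of all features and 46.2% of the other named genes above the floor. Quantile normalization, which gives all arrays the same distribution of ratios, left 7 members called lower (2.97%) and 1 higher (0.424%). Among the other named genes 2.81% were then lower and 3.95% higher, so the shares called lower were nearly equal. The medians were -0.048 for members and -0.015 for other genes. Without this step the SD of the ratios over all probes was 0.24 to 0.26 on the ApoE KO arrays and 0.08 to 0.14 on the WT arrays. Of the members described below, Zfp74, Zfp612, Zfp651, Zfp423, Zfp296, Zfp493 and Zfp648 stayed called under quantile normalization. Before it, Zfp612, Zfp296 and Zfp493 had every WT ratio at exactly 0, so rounding hides their spread in WT. The groups of Zfp493 differed by only 1.9 steps of 0.01.

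The falls were concentrated among the brighter members. In the class of lowest intensity, 0.1 to 0.2, 2 of 52 members fell (3.85%) beside 6.65% of other named genes. Between 0.2 and 0.5, 11 of 75 fell (14.7% beside 10.2%), and between 0.5 and 1, 11 of 38 fell (28.9% beside 13%). From 1 to 2 the counts were 7 of 30 lower (23.3% beside 14.9%) and 3 higher. In the brightest class, 2 or more, 19 of 41 members fell (46.3%) and none rose, whereas 20.6% of the 4203 other genes fell and 12.9% rose. The median fold change of that class was -0.20 for members and -0.062 for the others, and 35 of the 41 members lay below 0 (85.4%), beside 61.1% of the others. Had members been called as often as other genes of their class, 29.0 would have been lower and 28.3 higher, and 50 and 4 were observed. No test of the difference between members and other genes was made.

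**Figure D1:**
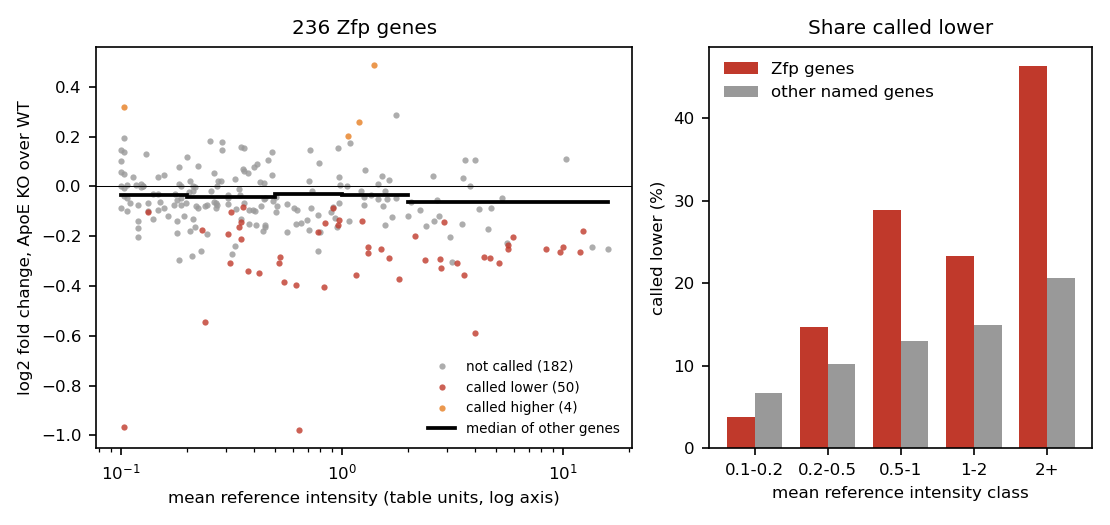
Left, log2 fold change (ApoE KO over WT) of each of the 236 Zfp genes against its mean reference intensity on a log axis, with black bars for the median of other named genes in each intensity class. Right, percentage called lower in each class for Zfp genes and other named genes. The share of Zfp genes called lower rose from 3.85% in the dimmest class to 46.3% in the brightest, while that of other genes rose from 6.65% to 20.6%.

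The members' median ratio was -0.083, -0.12 and -0.093 on the 3 ApoE KO arrays and 0, 0 and -0.021 on the WT arrays. Below 0 lay 66.5%, 74.6% and 70.3% of the members' ratios on the ApoE KO arrays, against 53.8%, 52.5% and 54.0% of those of other named genes above the floor. On the WT arrays the shares were 36.0%, 20.8% and 54.7% for members and 31.5%, 31.6% and 39.2% for other genes, so that WT replicate 3 also had a larger share of members below 0, by a wider gap than ApoE KO replicate 1. When each array was centred on the median of its features of intensity 0.5 or more, 36 members were lower and 9 higher, and their median became -0.030 while that of other genes became 0.010. Fold changes below 0 were then found in 61.4% of the members and 46.7% of the other genes. The split between members and other genes thus kept its direction, while other genes turned from 12.5% lower and 11.5% higher to 7.8% lower and 15.6% higher. Without ApoE KO replicate 1 or 3 the count of lower members was 28 or 23, and without WT replicate 1 or 2 it was 32 or 26.

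On the brightest probes, the deepest falls belonged to a pair of genes on the Apoe chromosome. Zfp74 had ratios of -1.02, -1.11 and -1.0 in ApoE KO and 0.02, 0.07 and -0.29 in WT, and it fell by 0.98 ± 0.11 on the log2 scale (adjusted p = 0.00747), which is 1.97-fold. Zfp111 stood at -1.0, -1.14 and -1.0 against -0.26, -0.14 and 0.17, a fall by 0.97 ± 0.13 (adjusted p = 0.0122). In both genes every ApoE KO array was below every WT array by a wide gap. Zfp111 was near the floor, with a reference intensity of 0.103 and a difference of 4.8 steps of 0.01, and its call was lost without ApoE KO replicate 1 (adjusted p = 0.0506) or 3 (0.0531).

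Zfp352 and Zfp612, which lie on other chromosomes, followed. Zfp352, known as a gene switched on in the early mouse embryo, had ratios of -0.59, -0.62 and -0.66 in ApoE KO and -0.02, 0.07 and -0.15 in WT, and its fall by 0.59 ± 0.06 (adjusted p = 0.00687) was read from a bright probe of intensity 4.00. Zfp612 was measured at -0.64, -0.43 and -0.56 against 0.00 on every WT array, a fall by 0.54 ± 0.06 (adjusted p = 0.00662). The groups were apart in both. Zeros such as these come from the rounding of the deposited intensities: 20% of the members' ratios were exactly 0, 14 members had all WT ratios at 0, 5 of those were called, and 5 called members differed by under 3 steps of 0.01.

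The remaining members among the 12 lowest changed by 1.27-fold to 1.32-fold. Zfp235 stood at -0.45, -0.42 and -0.27 in ApoE KO and 0.02, 0.07 and -0.05 in WT, a fall by 0.39 ± 0.06 (adjusted p = 0.0183). Zfp93 had -0.32, -0.43 and -0.36 against 0.03, 0.07 and -0.06, a fall by 0.38 ± 0.05 (adjusted p = 0.0105). Zfp61 had -0.34, -0.40 and -0.35 against 0.00, 0.11 and -0.09, a fall by 0.37 ± 0.06 (adjusted p = 0.018). These 3 genes are neighbours of Zfp111, and in each the lowest WT array was above the highest ApoE KO array. Zfp651 stood at -0.35, -0.24 and -0.36 against 0.05, 0.06 and 0.00 (a fall by 0.36 ± 0.04, adjusted p = 0.00713). Zfp286 stood at -0.39, -0.34 and -0.25 against -0.07, 0.07 and 0.07 (a fall by 0.35 ± 0.06, adjusted p = 0.0237). Zfp879 passed the threshold narrowly, at -0.34, -0.48 and -0.33 against 0.00, 0.04 and -0.17 (a fall by 0.34 ± 0.07, adjusted p = 0.0484). Of these 6 genes Zfp93 and Zfp651 stayed called when any 1 array was left out. Zfp235 lost the call without ApoE KO replicate 1 or 2 or WT replicate 1 or 2 (adjusted p of 0.0634 to 0.0723), and Zfp61 without any 1 ApoE KO array or WT replicate 1 (0.0644 to 0.073). Zfp286 lost it without ApoE KO replicate 1 or 2 or WT replicate 2 or 3 (0.0722 to 0.09), and Zfp879 without any 1 array but WT replicate 3 (0.115 to 0.135).

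**Figure D2:**
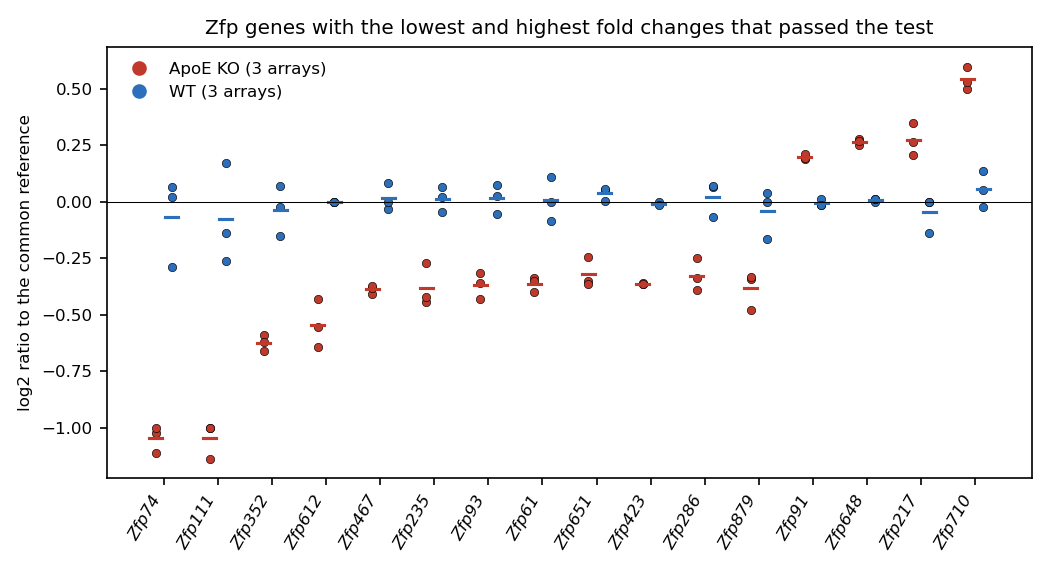
Log2 ratio to the common reference on each of the 3 ApoE KO and 3 WT arrays for the 12 lowest and the 4 highest called Zfp genes, with bars at the group means. Zfp74 and Zfp111 lie at or below -1.0 on every ApoE KO array, and Zfp710 is the highest gene, at 0.50 to 0.60.

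The members that rose numbered 4. Zfp710 stood at 0.50, 0.60 and 0.53 in ApoE KO and 0.14, 0.05 and -0.02 in WT, a rise of 0.49 ± 0.05 (adjusted p = 0.00649), which is 1.4-fold. Zfp648 stood at 0.25, 0.28 and 0.27 against 0.00, 0.01 and 0.01, a rise of 0.26 ± 0.01 (adjusted p = 0.000644). Zfp91 stood at 0.19, 0.19 and 0.21 against -0.01, 0.01 and -0.01, a rise of 0.20 ± 0.01 (adjusted p = 0.00114), which became 0.08 and was not called with its probes averaged (adjusted p = 0.0957). Its second probe was below the floor, at an intensity of 0.09. Zfp91 is an atypical member, a ubiquitin ligase that acts on the noncanonical NF-kappaB pathway. Zfp217, whose human counterpart is an oncogene amplified in breast cancer, stood at 0.26, 0.35 and 0.21 against 0.00, -0.14 and 0.00, a rise of 0.32 ± 0.06 (adjusted p = 0.0309). All 4 genes had groups apart, but Zfp217 was at an intensity of 0.103 and lost its call when any 1 array was left out, with adjusted p of 0.0641 to 0.104. The highest member that was not called was Zfp238, now named Zbtb18, at 0.29 ± 0.15 (adjusted p = 0.301), where WT replicate 3 stood alone at -0.45.

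Members were also read by known role, from lists that are short and hold 32 members in all, with Zfp622 on 2 of them. Of 8 genes listed as regulators of mesenchymal and fat cell fate 7 were members. Of these 2 fell (28.6%) and 1 rose (14.3%), beside 21.2% and 1.69% of all members and 7.97% and 6.69% of all features. The median fold change of the 7 was -0.24, the lowest of the 5 lists, beside -0.079 for all members. That median is the value of Zfp703, which was not called. Zfp423, which commits mesenchymal cells to the preadipocyte fate, had the smallest SE of the list: -0.37, -0.36 and -0.36 in ApoE KO against -0.01, 0.00 and -0.01 in WT, a fall by 0.35 ± 0.01 (adjusted p = 0.000181). At its intensity of 1.16 the SD was 0.003 in ApoE KO and 0.007 in WT. Rounding of intensities to 0.01 could set so small a spread, so the SE and the p may overstate the precision. Zfp467, which favours fat over bone cell formation from marrow stroma, stood at -0.41, -0.38 and -0.37 against 0.08, -0.03 and 0.00, a fall by 0.40 ± 0.03 (adjusted p = 0.0035). Both genes had every ApoE KO array below every WT array and stayed called whichever array was left out, but with its probes averaged Zfp467 was at -0.17 and not called (adjusted p = 0.0535). Zfp217 was the list's 1 member called higher. The other four were not called: Zfp704 was at -0.30 ± 0.09 (adjusted p = 0.1) and Zfp703 at -0.24 ± 0.07 (adjusted p = 0.0936), and Zfp516, a brown fat activator, and Zfp521, a repressor of the fat cell factor Ebf1, were both at -0.09. Of the fat markers, Adipoq, Plin1, Ucp1 and Cidea were not called, at 0.11, -0.07, -0.11 and -0.08, and the marker that fell, Lep, was below the floor at an intensity of 0.0967. The part of fat tissue in the samples was not tested.

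Of 10 genes that act on RNA or ribosomes 9 were members, 1 fell (11.1%, beside 7.97% of all features) and none rose, and their median fold change was 0.040, which turned to -0.013 under quantile normalization. Zfp622, the relative of a yeast factor of ribosome maturation, was the one that fell, at -0.16, -0.12 and -0.20 in ApoE KO and -0.01, 0.02 and 0.04 in WT (a fall by 0.18 ± 0.03, adjusted p = 0.0146), and its call was lost without ApoE KO replicate 1 (adjusted p = 0.0615) or WT replicate 2 (0.0636). Zfp36, or tristetraprolin, which speeds the decay of cytokine mRNAs, was at 0.15, 0.11 and 0.05 against 0.18, 0.05 and -0.20, with overlapping groups and a fold change of 0.09 ± 0.11 (adjusted p = 0.602). Zfp598, the sensor of collided ribosomes, was at 0.00 ± 0.02 (adjusted p = 1). Zfp207, a spindle and splicing protein, was at 0.11 ± 0.08, or 0.13 and called with its probes averaged (adjusted p = 0.0352), and Zfp106, needed for motor neuron upkeep, was at 0.15 ± 0.07. The further probes of Zfp207 were below the floor, at intensities of 0.0867 and 0.06.

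Among promoter-binding factors of wide expression 10 of 13 listed genes were members. Of these 3 fell (30.0%), beside 21.2% of all members and 7.97% of all features. Zfp219, a partner of Sox9 in cartilage cells and among the brightest members at 11.9, was at -0.27, -0.21 and -0.31 in ApoE KO and 0.02, -0.01 and -0.01 in WT (a fall by 0.26 ± 0.03, adjusted p = 0.00653). Zfp148, which binds GC-rich promoters, was at -0.18, -0.18 and -0.13 against 0.00 on all WT arrays (a fall by 0.16 ± 0.02, adjusted p = 0.00699). Zfp652, a repressor that works with Cbfa2t3, fell by 0.24 ± 0.05 (adjusted p = 0.0436), a call lost without any 1 array but WT replicate 3 (adjusted p of 0.0877 to 0.133) and with arrays centred (0.0539), while averaged probes put it at -0.12. Zfp143, an activator of many housekeeping promoters, was at 0.06, -0.13 and 0.06 against 0.07, 0.07 and -0.13, with a fold change of 0.00 ± 0.09. Its groups overlapped fully. Zfp281, Zfp335, Zfp410, Zfp161, Zfp202 and Zfp263 were not called either, at -0.16 to 0.16.

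Of the silencers of retroelements and imprints 4 of 7 were members and all 4 lay below 0, as did 72.0% of all members. Zfp568, which represses a placental promoter of Igf2, was at -0.11, -0.13 and -0.17 in ApoE KO and 0.00, 0.06 and 0.06 in WT, a fall by 0.18 ± 0.03 (adjusted p = 0.0178), at an intensity of 0.233 where the difference came to 2.7 steps of 0.01, and the call was lost without ApoE KO replicate 2 or 3 or WT replicate 2 or 3 (adjusted p of 0.0532 to 0.0691). Zfp57, which keeps methylation at imprinted genes, was at -0.21, -0.11 and -0.11 against 0.00 on all WT arrays (-0.14 ± 0.03, adjusted p = 0.0532), and it passed the threshold without ApoE KO replicate 1 (adjusted p = 0.00133). Zfp445, its partner at imprints, was at -0.05 ± 0.07, and Zfp809, which silences retroviral DNA in stem cells, at -0.07 ± 0.03. In the list of ubiquitin and signalling proteins Zfp91 rose, Zfp622 fell and Zfp277 was at -0.18 ± 0.04 (adjusted p = 0.0547).

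**Figure D3:**
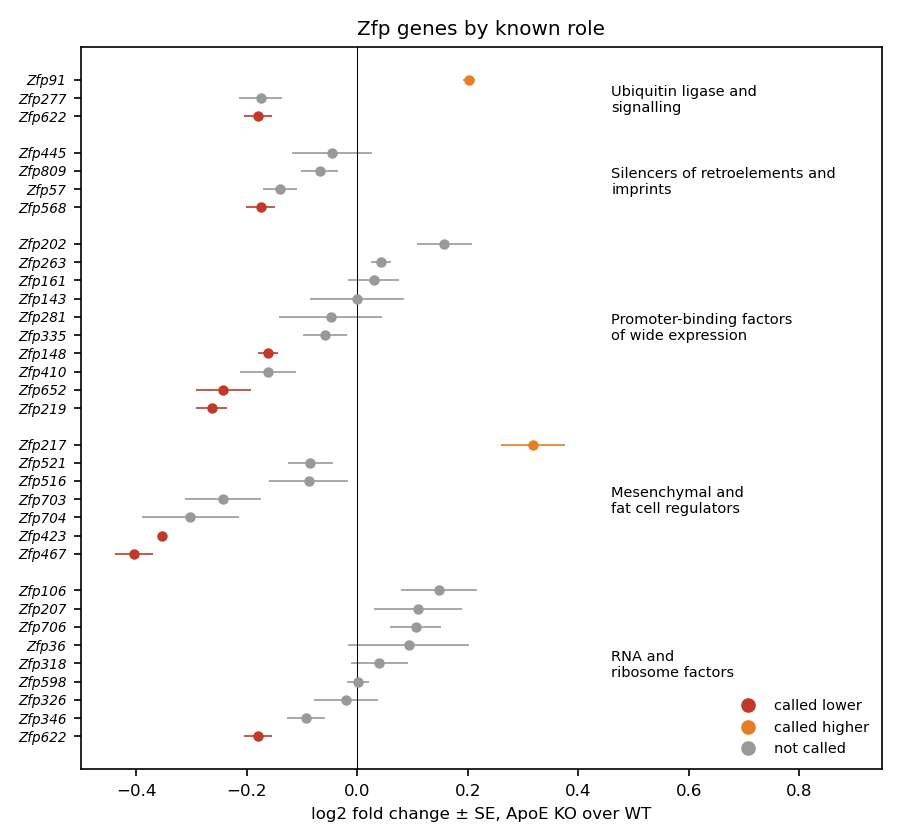
Log2 fold change (ApoE KO over WT) with its standard error for the listed Zfp genes by known role, coloured by call. Genes of the mesenchymal and fat cell list range from -0.40 for Zfp467 to 0.32 for Zfp217, and RNA and ribosome factors lie between -0.18 and 0.15.

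KRAB proteins silence genes through shared partners. Of 36 listed corepressor genes 35 were measured, 4 fell (11.4%) and 2 rose (5.71%), beside 7.97% and 6.69% of all features, and their median was -0.044, or 0.0053 with arrays centred. Trim28, the shared corepressor, was at -0.22 ± 0.05 (adjusted p = 0.066) and Setdb1 at 0.14 ± 0.09 (adjusted p = 0.411). The falls were those of the NuRD remodeller Chd3 (0.66 ± 0.08, adjusted p = 0.00957), the HP1 protein Cbx5 (0.36 ± 0.05, adjusted p = 0.0108), the NuRD subunit Mta3 (0.35 ± 0.02, adjusted p = 0.00177) and the deacetylase Hdac1 (0.16 ± 0.03, adjusted p = 0.0359, fitted without ApoE KO replicate 3, whose value is missing). When ApoE KO replicate 1 or 3 was left out, Cbx5 was no longer called (adjusted p of 0.0506 and 0.0503), and Hdac1 was no longer called without any single array but ApoE KO replicate 3 (0.0501 to 0.128) or with arrays centred (0.089). With probes averaged, Cbx5 was at -0.14 and not called (adjusted p = 0.096), and Mta3 was at -0.11 with its call kept (0.0442). The DNA methyltransferase gene Dnmt3a rose by 1.45 ± 0.04 (adjusted p = 0.000416) and Uhrf1 by 0.98 ± 0.06 (adjusted p = 0.00151). Dnmt1, another methyltransferase gene of the list, was at 0.05 ± 0.04 and not called (adjusted p = 0.495). Related zinc finger families above the same floor had medians below 0, as did the other named genes (-0.039, with 12.5% called lower). The median was -0.087 over 25 Zbtb genes with 2 falls (8%), -0.083 over 7 Zkscan genes with 2 falls (28.6%), -0.096 over 8 Zscan genes with 3 falls (37.5%), and -0.19 over 15 Klf genes with 2 falls (13.3%) and 1 rise. These 4 medians stayed below 0 with arrays centred and with quantile normalization.

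By place in the genome, members lay on 20 chromosomes, and 235 of the 236 were placed through the RefSeq gene table. On chromosome 7, which carries Apoe, 17 of 55 members fell (30.9%) and 1, Zfp710, rose, with a median of -0.12, while of 1305 other named genes there 16.0% fell and their median was -0.057. On the other chromosomes 33 of 180 members fell (18.3%) and 3 rose, with a median of -0.072, beside 12.5% of other named genes. Called members on chromosome 7 numbered 18 in all, and 11, 7 and 9 without ApoE KO replicate 1, ApoE KO replicate 3 and WT replicate 2. On the other chromosomes the 36 calls became 20, 20 and 21. Whether the knockout mice carried other variants on this chromosome is not stated, and its part in these values was not tested.

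Within chromosome 7 the falls were not limited to the surroundings of Apoe. The nearest member, Zfp296, a gene of pluripotent cells 8 genes away, was at -0.31, -0.34 and -0.27 in ApoE KO and 0.00 on all WT arrays (a fall by 0.31 ± 0.02, adjusted p = 0.00169). From over 100 to 300 genes from Apoe 5 of 16 members fell, up to 600 genes 6 of 22, and beyond 600 genes 5 of 16, where other named genes fell in 23.8%, 14% and 15%. Besides the genes described above, Zfp574 fell in the first of these zones, by 0.18 ± 0.04 (adjusted p = 0.0451), a call lost without any 1 array (0.0621 to 0.126). The members' medians in these zones were -0.081, -0.13 and -0.13. The 5 falls beyond 600 genes all lay at 2965 to 2993 genes, a stretch picked out after its values were seen. They were Zfp771, Zfp768, Zfp747, Zfp764 and Zfp629, by 0.31, 0.25, 0.29, 0.29 and 0.24 on the log2 scale. Other genes of this stretch were not counted. Between them, Zfp688 was at 0.00 ± 0.05 (adjusted p = 1) and Zfp689 at -0.15 ± 0.03 (adjusted p = 0.0517). On the other side of Apoe, Zfp524 and Zfp444 fell by 0.31 and 0.14. The calls of Zfp747 and Zfp764 held without any 1 array. That of Zfp768 was lost without ApoE KO replicate 3 or WT replicate 1 or 2 (adjusted p of 0.0502 to 0.0675), and that of Zfp629 without ApoE KO replicate 1 or 3 or WT replicate 2 (0.0525 to 0.0577). Zfp524 lost it without ApoE KO replicate 1 or 3 or WT replicate 1 or 2 (0.0502 to 0.0672), Zfp771 without ApoE KO replicate 1 or 3 or WT replicate 2 or 3 (0.0773 to 0.108), and Zfp444 without any 1 array but ApoE KO replicate 2 (0.0693 to 0.121).

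**Figure D4:**
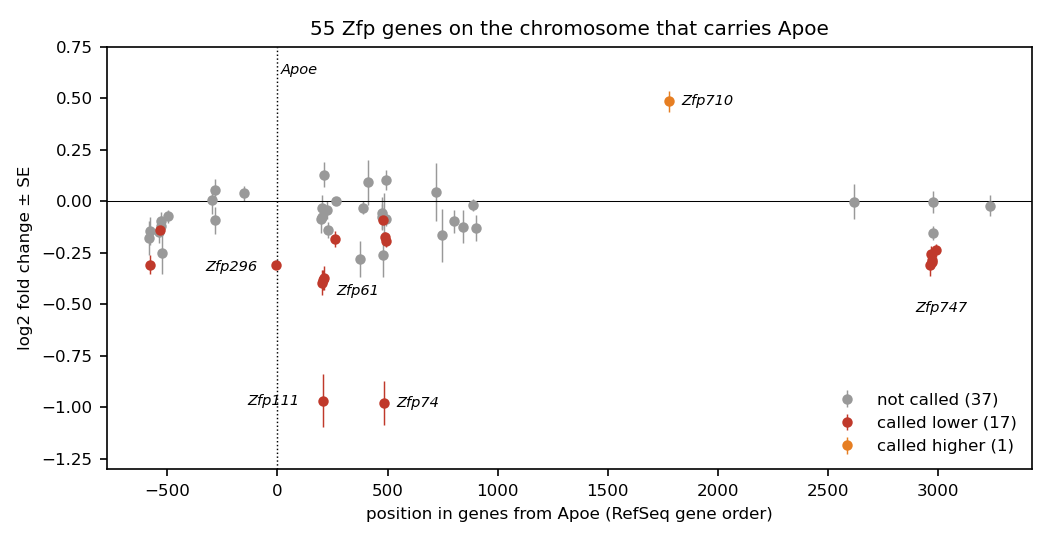
Log2 fold change of the brightest probe with its standard error for the 55 Zfp genes on the chromosome of Apoe, against their position in genes from Apoe in RefSeq gene order (negative values lie before it). Zfp111 and Zfp74, at 205 and 485 genes, stand far below the rest, and called falls also occur at both ends of the axis.

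Close neighbours often differed. In all, 112 members lay within 10 genes of another, and 8 runs held 4 or more members each. One run, from Zfp180 to Zfp94, spans 200 to 213 genes from Apoe and holds 8 members, of which Zfp235, Zfp111, Zfp93 and Zfp61 fell. The others were not called: Zfp180, the brightest of the run at 4.72, was at -0.09 ± 0.06, Zfp114 at -0.08 ± 0.03 (adjusted p = 0.143), Zfp112 at -0.03 ± 0.06 and Zfp94 at 0.13 ± 0.06 (adjusted p = 0.254). Zfp94 had ratios of 0.21, 0.18 and 0.19 in ApoE KO and 0.19, 0.00 and 0.00 in WT, so that it lay on the other side of 0 from Zfp61, the gene beside it. Zfp114 and Zfp112 were dim, at 0.247 and 0.14.

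A second run of 10 members, from Zfp84 to Zfp382 at 475 to 495 genes from Apoe, held Zfp74. Zfp420, Zfp568 and Zfp82 of this run also fell on their brightest probes, by 0.09, 0.18 and 0.19 on the log2 scale. Zfp420 lost its call without any 1 array but ApoE KO replicate 2 (adjusted p of 0.0535 to 0.112) and Zfp82 without ApoE KO replicate 3 or WT replicate 1 or 2 (0.05 to 0.0554). With all probes of a gene averaged, Zfp82 was at -0.08 (adjusted p = 0.499) and Zfp568 at -0.12 (0.147), both without a call. Zfp420, whose second probe is described below, was then at -0.78 and still called. The second probes of Zfp82 and Zfp568 were below the floor, at intensities of 0.0367 and 0.06. The run's other members were not called, among them Zfp383, the direct neighbour of Zfp74, which was at -0.10, -0.35 and -0.10 in ApoE KO and -0.02, 0.03 and -0.31 in WT, with overlapping groups (-0.08 ± 0.13, adjusted p = 0.713). Zfp790 was at -0.26 ± 0.11 (adjusted p = 0.239), and Zfp84, Zfp30, Zfp14 and Zfp382 at -0.09 to 0.10.

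Promoter windows of the genes at these extremes are shown because neighbouring genes moved differently. Each runs from 250 bases before to 50 after the annotated start, 300 bases in all, on the gene's strand, from the RefSeq promoter table of build GRCm38.p6. The windows are chr7:29954016-29954315 (minus strand) for Zfp74, chr7:24208100-24208399 (minus) for Zfp111, chr7:24270168-24270467 (plus) for Zfp93 and chr7:24316617-24316916 (minus) for Zfp94. Zfp423, the member with the lowest adjusted p, has chr8:87959546-87959845 (minus), and Zfp710, the highest rise, has chr7:80024564-80024863 (plus). Zfp111 and Zfp423 have 2 windows in the table each, of which the first is shown. Capitals mark matches to ACTAC, any 4 bases and CCC, a core of the motif known for Zfp143, or to its reverse complement.
Zfp74: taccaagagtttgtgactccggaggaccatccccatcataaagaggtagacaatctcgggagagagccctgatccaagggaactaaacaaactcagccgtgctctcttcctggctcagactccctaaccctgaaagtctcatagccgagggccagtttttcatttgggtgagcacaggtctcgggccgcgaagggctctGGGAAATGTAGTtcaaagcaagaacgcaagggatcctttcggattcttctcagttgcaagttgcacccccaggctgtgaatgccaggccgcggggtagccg
Zfp111: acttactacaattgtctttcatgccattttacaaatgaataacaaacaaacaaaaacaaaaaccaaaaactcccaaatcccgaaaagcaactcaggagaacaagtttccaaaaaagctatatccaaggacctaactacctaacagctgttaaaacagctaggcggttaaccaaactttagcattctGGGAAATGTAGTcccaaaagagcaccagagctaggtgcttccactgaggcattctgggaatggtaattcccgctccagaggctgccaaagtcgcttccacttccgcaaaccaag
Zfp93: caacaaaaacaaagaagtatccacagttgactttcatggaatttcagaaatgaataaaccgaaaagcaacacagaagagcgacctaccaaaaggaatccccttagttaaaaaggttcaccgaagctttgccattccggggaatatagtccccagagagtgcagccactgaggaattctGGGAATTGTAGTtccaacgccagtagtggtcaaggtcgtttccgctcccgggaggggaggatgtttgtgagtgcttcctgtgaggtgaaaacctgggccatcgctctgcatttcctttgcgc
Zfp94: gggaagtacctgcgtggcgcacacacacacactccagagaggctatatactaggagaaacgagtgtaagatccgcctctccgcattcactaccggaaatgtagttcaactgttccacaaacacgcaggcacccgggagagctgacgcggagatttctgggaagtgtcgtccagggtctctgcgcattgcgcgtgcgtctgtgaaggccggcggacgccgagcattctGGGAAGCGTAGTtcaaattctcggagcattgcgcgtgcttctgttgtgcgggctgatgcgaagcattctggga
Zfp423: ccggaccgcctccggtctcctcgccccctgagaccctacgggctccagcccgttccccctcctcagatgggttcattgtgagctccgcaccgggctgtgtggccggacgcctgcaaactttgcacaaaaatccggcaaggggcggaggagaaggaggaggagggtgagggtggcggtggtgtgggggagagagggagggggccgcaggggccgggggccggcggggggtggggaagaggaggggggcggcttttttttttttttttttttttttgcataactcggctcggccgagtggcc
Zfp710: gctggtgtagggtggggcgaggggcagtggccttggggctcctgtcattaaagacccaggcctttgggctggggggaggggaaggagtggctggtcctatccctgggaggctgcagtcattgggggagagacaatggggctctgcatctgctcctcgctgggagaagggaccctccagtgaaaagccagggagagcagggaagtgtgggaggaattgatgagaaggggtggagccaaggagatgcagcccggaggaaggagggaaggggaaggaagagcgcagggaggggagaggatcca

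The first 4 windows, all from clustered genes of chromosome 7, hold 1 match each, and those of Zfp423 and Zfp710 hold none. The motif was chosen after these sequences were seen. Searched on both strands in any window of a gene, it was found in 37 of the 190 members in the table (19.5%), in 4.22% of 17491 protein-coding genes and in 3.16% of all 27025 genes. On chromosome 7 it occurred in 15 of 50 members, elsewhere in 22 of 140. Of the 37 members with it 10 fell and 1 rose, with a median fold change of -0.084, and of the 153 without it 27 fell and 3 rose, with a median of -0.076. Zfp111 and Zfp93, which fell, and Zfp94, which was not called, each carried a match, with different letters at the 4 free bases. A CCAAT box (CCAAT, both strands) was found in 11 of the 37 called lower (29.7%), in 46.3% of all 190 members and in 42.3% of protein-coding genes. The GC box (GGGCGG, both strands) was found in 51.4%, 52.1% and 49.2%, and TATAAA in 13.5%, 11.1% and 14.8%. By place, the CCAAT box was found in 16 of 50 members on chromosome 7 (32.0%) and in 72 of 140 elsewhere (51.4%). None of these motifs contains another. Median GC content was 57.5% in members and 56.3% in protein-coding genes.

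Runs on other chromosomes ranged from falls to none. On chromosome 17 none of 22 members was called, beside 22.9% of all members and 14.7% of all features, and the median was 0.0045. Its run of 7, from Zfp677 to Zfp229, had a median of 0.089 with 1 member below 0, and Zfp53, the highest, was at 0.29, 0.00 and 0.14 in ApoE KO and 0.00, 0.00 and -0.15 in WT (0.19 ± 0.09, adjusted p = 0.254). Chromosome 15 held 7 falls among 11 members (63.6%), beside 21.2% of all members and 7.97% of all features. Other genes of chromosomes 15 and 17 were not counted for comparison. Its Zfp740 stood at -0.27, -0.20 and -0.26 against 0.01, 0.04 and -0.02 (a fall by 0.25 ± 0.03, adjusted p = 0.00713), and Zfp706, a small protein linked to stem cell differentiation, was at 0.11 ± 0.05 without a call. On chromosome 6 the run from Zfp786 to Zfp746 had a median of -0.22, and of its 6 members Zfp212 and Zfp777 fell, by 0.26 and 0.27 on the log2 scale, the latter losing its call without any 1 array but ApoE KO replicate 2 (adjusted p of 0.0505 to 0.101). In the same run Zfp282 was at 0.07 ± 0.03 (adjusted p = 0.271), and Zfp746, a substrate of the ubiquitin ligase parkin, was at -0.30 ± 0.16 (adjusted p = 0.301), with WT replicate 3 at 0.35. The run of 9 on chromosome 13 had a median of 0.023, with falls of 0.15 in Zfp708 and 0.08 in Zfp493. Zfp708 lost its call without any 1 array but WT replicate 3 (adjusted p of 0.099 to 0.156). Both lost it with arrays centred, as did Zfp420, Zfp444, Zfp568 and Zfp574 (adjusted p of 0.0509 to 0.249 over the 6 genes).

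Probes of the same gene did not always give the same result. Of 61 members with over 1 probe, 30 had a second one of intensity 0.1 or more. In 18 of these both probes were within 0.1 of each other in log2 fold change, and in 4 they were over 0.3 apart. These were named after their values were seen. Zfp420, in the run that holds Zfp74, differed most. Its brightest probe, at intensity 0.91, was at -0.12, -0.07 and -0.08 in ApoE KO and 0.02, 0.00 and -0.02 in WT, a fall by 0.09 ± 0.02. Its second probe, nearly as bright at 0.727, was at -1.50, -1.40 and -1.46 against -0.06, 0.06 and 0.04, a fall by 1.47 ± 0.04 (adjusted p = 0.000514 in a fit of all 39556 probes), which is 2.76-fold. This was deeper than the fall of Zfp74, and the rule of the brightest probe left it out of the counts. In the file the second probe names the curated transcript NM_172740 and the first the expressed sequence tag AI450349, and which transcripts each detects was not tested.

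In Zfp710 the second probe, at intensity 0.31, was at 0.00 ± 0.03 (adjusted p = 1), so the rise rested on the brightest probe, and the probes' average rose by 0.24 (adjusted p = 0.0238). In Zfp467 the second probe, at 0.17, was at 0.06 ± 0.05 (adjusted p = 0.498) beside the fall of 0.40 of the first. Zfp760 was at 0.00 ± 0.08 on the first and -0.34 ± 0.20 (adjusted p = 0.346) on the second, where WT replicate 3 stood at 0.55. For Zfp296 both probes, of equal intensity 0.313, fell, by 0.31 and 0.27. Among the 30 genes 7 first probes and 4 second probes were called, 2 genes on both, and none in opposite directions.

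**Figure D5:**
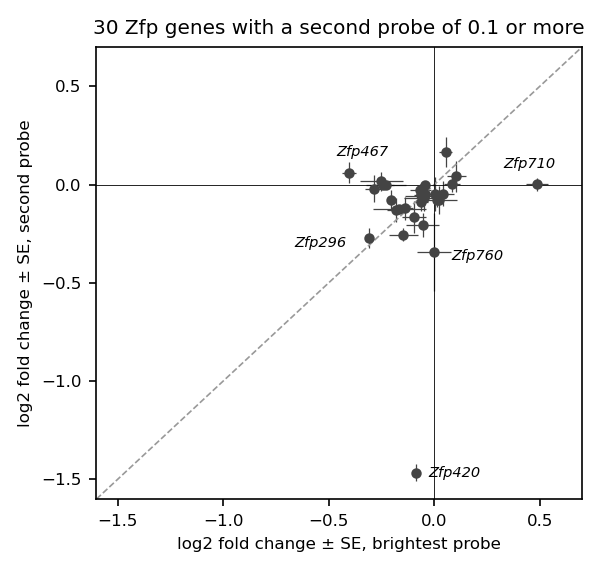
Log2 fold change with standard errors of the second probe against that of the brightest probe for the 30 Zfp genes whose second probe had an intensity of 0.1 or more, with a dashed line of equality. Zfp420 lies far below the line, at -0.09 and -1.47, and Zfp296 lies close to it.

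At the floor the rule made a narrow choice. Zfp110, Zfp382 and Zfp599 entered with an intensity of 0.1, at fold changes of 0.06, 0.10 and -0.09, while Zfp260, Zfp397 and Zfp819 stayed out at 0.0967, at 0.05, 0.12 and 0.10. Exactly at the floor were 5 members, and 15 were under 0.11. Of the 60 dimmer Zfp genes 1 was called lower and 1 higher, and their median was 0. A value was missing for 3 members: Zfp28 and Zfp609 were fitted without WT replicate 2 and Zfp330 without ApoE KO replicate 3, and none of them was called.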

How the data were processed

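Transcripts of 3 ApoE KO and 3 WT aortas were measured on 2-colour Agilent arrays. Groups follow the Cy5 channel's genotype label. Per the labels' protocols, 100 ng of Trizol RNA was amplified in repeated rounds. The submitters' processing notes name Agilent Feature Extraction 8.5.1.1. How background and dyes were corrected, and the array's build, are not given in the sources used. In the value table the authors deposited, each entry is a log10 ratio, own RNA over reference, converted here to log2. The authors' deposited intensity table gave the reference intensity, on an unstated scale. It has 18 columns with values of samples, of which 12 were left out. Ratios computed from it equalled the WT values in 100.0% of 39485 probes (within 0.002, log10), and in 4.49% with the sign turned, which fixed the direction. Whether the ratios were centred is unknown.

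The brightest probe by mean reference intensity stood for each symbol, giving 35318 features. The test was limma 3.58.1 (lmFit, then eBayes; R 4.3.3; two-sided, Benjamini-Hochberg, adjusted p under 0.05), and the fit was tested on simulated data. Second probes were tested in a fit of all probes. Members were matched to RefSeq GRCm38.p6 by accession, symbol or synonym (235 of 236, 12 under another symbol), for names, gene order and promoter windows. The genes named were Apoe, the 12 lowest and 12 highest called members with groups apart (4 were called higher), called members on the Apoe chromosome, listed members, those around the floor, 7 corepressor genes and members behind counts of 5 or fewer. The members of runs, and those described by probe or on chromosomes 6, 13, 15 and 17, were chosen after their values were seen. The members, lists and rules were chosen with earlier results of these data known. Alternatives covered intensity floors, centring, quantile normalization, array weights, trended variance, probe means, the replicate number as a block, and leaving out each array. Counting fingers and KRAB domains per protein was not done, because no protein sequences were used here.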

Additional observations from a re-analysis of the deposited data

How the results depend on the processing

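Of the 54 member calls, 54 remained when features under a reference intensity of 0.1 were left out of the fit, 40 with arrays centred, 49 with trended and robust variances, 47 with all probes of a gene averaged and 8 with quantile normalization. Members called lower numbered 50, and 7 with quantile normalization, 33 with each intensity class centred (chosen after seeing the data) and 18 with the replicate block. Members called higher numbered 4, and 7 on features of 0.1 or more, 9 with arrays centred, 9 centred by class, 10 with both the floor and centring (chosen after seeing the data) and 1 with quantile normalization. The members' median of -0.079 became -0.13 over the 109 of intensity 0.5 or more, -0.030 with arrays centred, with or without the floor, and -0.042 centred by class. With quantile normalization members called numbered 2 on the Apoe chromosome (18 without it) and 6 elsewhere (36), corepressor genes called 3 (6) and all features called 1660 (5177). Array weights gave 55 calls off the Apoe chromosome. Trended and robust variances ended the calls of Zfp574, Zfp652, Zfp708 and Zfp879 (adjusted p of 0.053 to 0.0587). Zfp704 and Zfp277 were called lower with array weights (adjusted p of 0.0207 and 0.00851) and with a floor of 0.5 (0.0171 and 0.02). With a floor of 0.5 the share of members called lower was 33.9%. With 1 array left out, members called lower numbered 23 to 52 and higher 3 to 6, calls on the Apoe chromosome 7 to 16 and elsewhere 20 to 39. Why the counts moved was not tested, also where arrays or features were left out.

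The replicate numbers did not pair the samples: deviations of same-numbered arrays correlated at 0.072, -0.48 and -0.15. Those of differently numbered arrays correlated at -0.43 to 0.62, the highest being ApoE KO replicate 2 with WT replicate 3. Arrays of the 2 groups thus shared some variation, whose source was not tested. With the number as a block 18 members were called lower, 5 members on the Apoe chromosome and 16 elsewhere were called, and all features gave 2556 calls. Apoe itself kept its fold change with an adjusted p of 0.0685. Rounding to 0.01 limits what can be read from members near the floor, where the step is coarse beside the signal. None of the named genes that were called changed sign under these alternatives, whereas several that were not called lay on both sides of 0, among them Zfp36 (-0.06 to 0.18) and Zfp207 (-0.01 to 0.18).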
